A study of Coccomyxa subellipsoidea C-169 with 6 samples.

Results

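The wild type transcriptome of the green microalga Coccomyxa subellipsoidea C-169 in stationary phase was described from RNA-seq libraries taken 3 hours before the dark phase. Its members are the 3 libraries labelled WT, of 6 libraries in the series. They were chosen by their label alone and are not compared here with the other 3, which carry the label CsubMADS1 OX. Per the labels' protocols, the 3 are biological replicates, Trizol was used to extract total RNA, and the library kit was an Illumina-compatible directional one. No transgene or added agent is named for the WT cultures. The strain is a single genotype grown as a cell suspension, and the labels do not say how long the cultures had been stationary.

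Coccomyxa is a small unicellular green alga that grows in water and on damp surfaces. In stationary phase a culture no longer gains cells, so its mRNA pool shows which transcripts cells keep when the population is not growing. A large part of any eukaryotic mRNA pool usually encodes the translation machinery and protein folding factors, and in algae a further part encodes photosynthesis and carbon fixation, with chloroplast-encoded transcripts forming a separate pool that is not analysed here.

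The 3 libraries held 4953851, 4659434 and 3771499 counts in replicates 1, 2 and 3. Of 9490 genes listed (9457 protein-coding and 33 tRNA genes by RefSeq), 9322 had at least 1 count in WT, 8883 of them in all 3 libraries. The other 168 genes had no count in any WT library. A count of 0 allows up to 0.606, 0.644 and 0.795 CPM (counts scaled to a library total of 1000000) in replicates 1, 2 and 3, where the limit is 3 counts and covers counting error only. All 10 kinds of green algal marker that were looked up by name were detected, among them the Rubisco small chain, chlorophyll a-b binding proteins, oxygen evolving proteins, glutamine synthetase and phosphoribulokinase. The lowest of these markers was plastocyanin, at 3.71 to 4.84 CPM. The tRNA genes together held 0.00387% of the counts.

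Levels are given on a pair of scales. CPM is a gene's share of the counts in its library, so it says what fills the pool of counts. CPM per kilobase divides this by the length of the gene in the RefSeq annotation, introns included, and is the scale on which levels of different genes are compared. Both are shares. A smaller share of a transcript, fewer cells that carry it and less RNA per cell cannot be told apart in bulk RNA.

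The pool was spread over many genes, with no gene dominating it. The most abundant gene held 1.11% ± 0.0449 (SD, n = 3) of the counts. The 10 most abundant held 5.35%, the 25 most abundant 9.01% and the 100 most abundant 19.9% by the mean of the 3 libraries. Taken library by library, the share of the 100 most abundant was 20.3%, 20.2% and 19.4%. It took 728 genes to reach 50% of the counts, 4330 to reach 90% and 7338 to reach 99%. The number needed for 50% was 708, 706 and 759 in the single libraries, so replicate 3 needed the most genes. Its top was not flatter, since the 10 most abundant held 5.41%, 5.24% and 5.47% in replicates 1, 2 and 3. On the CPM per kilobase scale fewer genes filled the pool, with 580 genes for 50% and 3814 for 90%, but the first gene held 0.653% and the top 10 held 5.05%, less than by CPM.

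**Figure D1:**
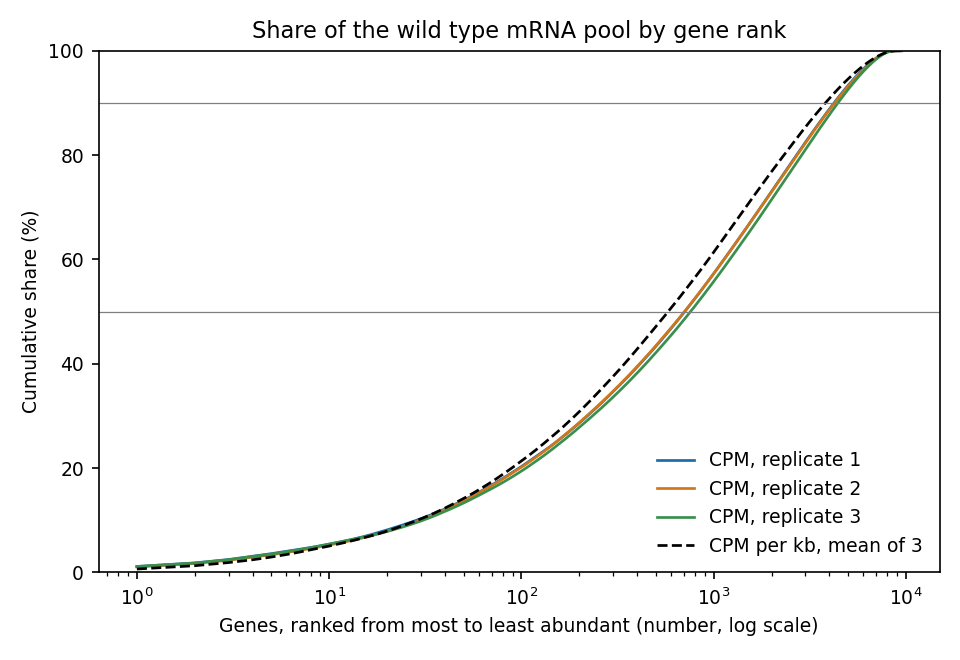
Cumulative share of the WT pool (percent) against gene rank (log scale), for CPM in each of the 3 libraries (solid lines) and for the mean CPM per kilobase (dashed line); the grey lines mark 50% and 90%. The 3 library curves lie close together, replicate 3 reaches 50% at 759 genes against 708 and 706 in replicates 1 and 2, and the per-kilobase curve reaches it at 580 genes against 728 by mean CPM.

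By level, 8676 genes reached a mean of 1 CPM, 7746 reached 10 CPM, 2349 reached 100 CPM and 111 reached 1000 CPM. The 111 genes at 1000 CPM or more were 1.17% of the genes listed and held 21.0% of the counts. The 2238 genes between 100 and 1000 CPM held 55.1%, and the 5397 genes between 10 and 100 CPM, which were 56.9% of the genes, held 23.4%. The 1576 genes above 0 and below 10 CPM together held 0.499% of the counts. Abundant genes were on the whole longer in the annotation: the median gene span was 1768 bases for genes above 0 and under 1 CPM and 3069 bases for genes at 1000 CPM or more. Across 8676 genes the correlation of log2 CPM with log2 span was weak (Pearson's r = 0.163, Spearman's rho = 0.139, across genes, which are not independent replicates and share the length in both measures).

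The most abundant transcript came from COCSUDRAFT_45992, which encodes a protein with a cold-shock domain, a fold that binds single-stranded RNA and DNA. It had 11397, 10618 and 11397 CPM in replicates 1, 2 and 3, a mean of 11137 ± 449 CPM (SD, n = 3), and it ranked first in every library. The only other gene named for this domain, COCSUDRAFT_39240, had 28.3, 33.9 and 37.1 CPM. On the CPM per kilobase scale the first of the pair had 2764 ± 112 and the second 16.1, so the class rested on 1 gene.

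The next ranks by CPM belonged to fatty acid desaturation, translation and carbon fixation. COCSUDRAFT_53735 encodes a plastid acyl-ACP desaturase, the enzyme that places the first double bond into plastid fatty acids in plants. It had 6869.8, 6634 and 6556 CPM, a mean of 6687 ± 163. COCSUDRAFT_47721 encodes elongation factor EF-3, a translation factor known best from fungi, where it is needed for elongation, and had 6463, 6104 and 6392 CPM. The elongation factor 1-alpha gene COCSUDRAFT_27513, whose product brings aminoacyl-tRNA to the ribosome, had 3732, 3585 and 3765 CPM. The library values of these 3 genes and the cold-shock domain gene lay close together, with coefficients of variation (CV, the SD divided by the mean) between 2.44% and 4.04%.

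COCSUDRAFT_67338, named only as a metallo-hydrolase or oxidoreductase, took rank 4 with 6300.2, 5992 and 6271 CPM. COCSUDRAFT_65708 encodes the small chain of Rubisco, the enzyme that fixes carbon dioxide, and took rank 5 with 4496, 4577 and 4670.3 CPM. Because its gene spans only 1610 bases, it ranked first on the CPM per kilobase scale, at 2845 ± 54.1. Its mean and that of the cold-shock domain gene on that scale differed by less than the SD of the latter, so their order was not resolved. The Rubisco small chain had 1 listed gene.

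Chaperones filled 4 of the first 25 places. The HSP70 gene COCSUDRAFT_26106 took rank 6 with 4915, 4289.8 and 4407 CPM, and a second HSP70 gene, COCSUDRAFT_52952, had 2432, 2014 and 2082 CPM. The HSP90 gene COCSUDRAFT_54922 had 3204, 2725 and 2656 CPM. HSP70 and HSP90 fold client proteins with the use of ATP. The small heat shock gene COCSUDRAFT_31935, of the HSP20 family that holds unfolded proteins without ATP, had 3169, 2641 and 1928 CPM, and its CV of 24.2% was the largest of the 25. In all 4 of these genes replicate 1 was the highest library. The share of all genes highest in replicate 1 was not taken. These 4 genes span 3069 to 8507 bases. Over all 3614 genes of 3000 bases or more with at least 10 CPM, replicate 1 had a median log2 deviation of 0.05 from the mean of the libraries, centred on the median gene.

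Single genes for iron storage, redox reactions and a transcriptional coactivator were also among the first 25. By name, 2 of 13 iron genes, 1 of 102 redox and oxygen scavenging genes and 1 of 323 oxidoreductase genes reached 1000 CPM. Over all listed genes it was 111 of 9490. The ferritin gene COCSUDRAFT_67369, whose product stores iron in a mineral core, took rank 7 with 3504, 3963 and 3807 CPM. L-ascorbate peroxidase (COCSUDRAFT_26227), which removes hydrogen peroxide, had 2679.7, 2441 and 1946 CPM. A short-chain dehydrogenase-like gene (COCSUDRAFT_53952) had 2144, 2496 and 2297 CPM. MBF1, a transcriptional coactivator, was represented by COCSUDRAFT_29279 with 2327, 2089 and 1832 CPM. Replicate 3 was the lowest library for ascorbate peroxidase and MBF1, and replicate 1 was the lowest for ferritin and the dehydrogenase.

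**Figure D2:**
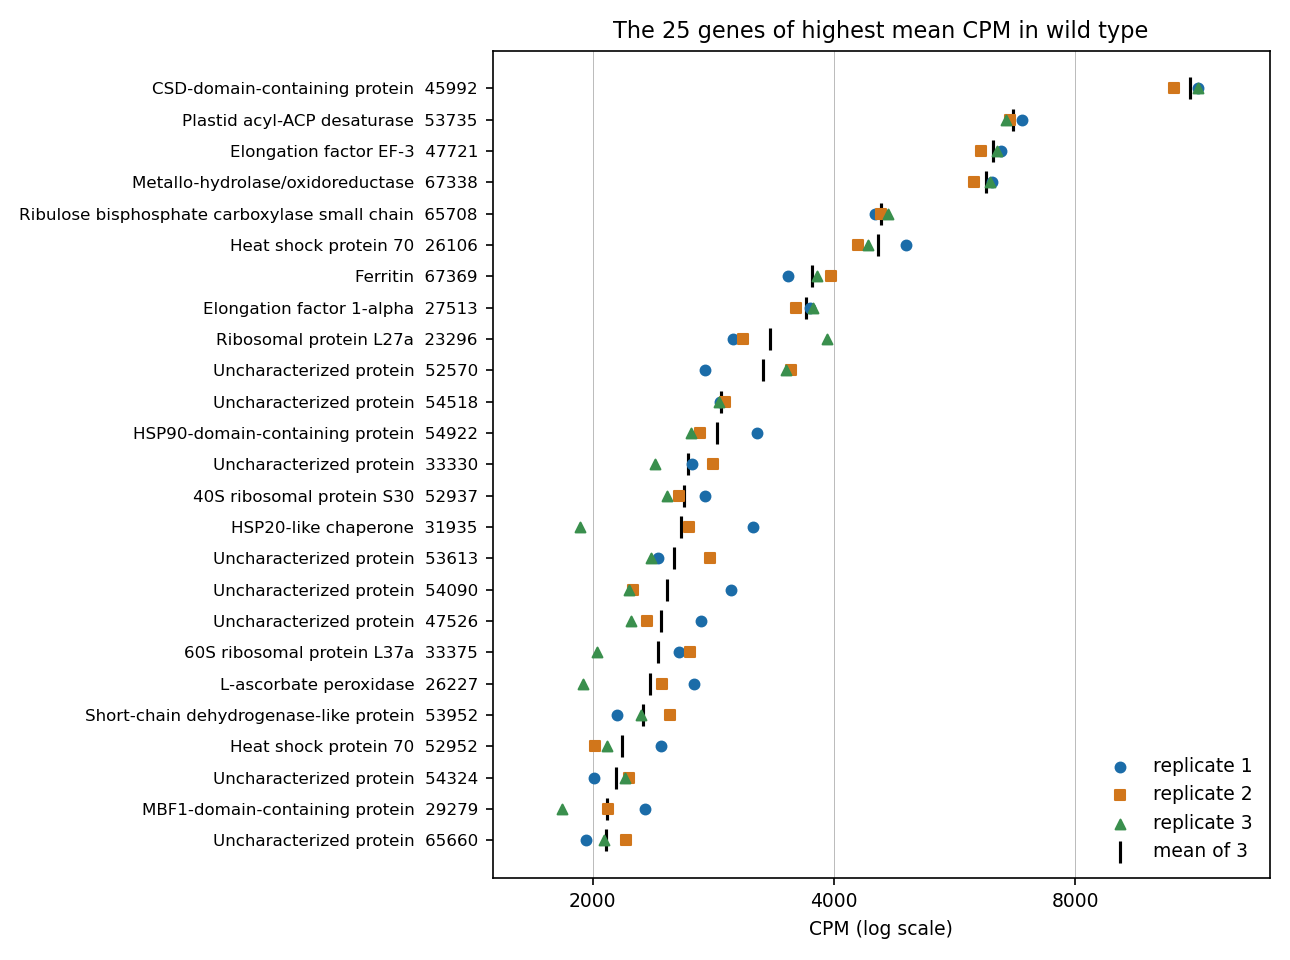
CPM (log scale) of the 25 genes of highest mean CPM in the 3 WT libraries, with symbols for replicates and a bar for the mean; numbers after the names are those of the locus tags. The cold-shock domain gene stands apart at 10618 to 11397 CPM, and the libraries are widest apart for the HSP20 gene, from 1928 to 3169 CPM.

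Of the 25, 8 had no informative product name. They included COCSUDRAFT_52570 at 2765, 3537 and 3485 CPM and COCSUDRAFT_54518 at 2881, 2923 and 2876 CPM. Both have short genes of 1455 and 1237 bases and took ranks 5 and 4 on the CPM per kilobase scale, at 2242 ± 296 and 2339 ± 20.9. COCSUDRAFT_52570 is the 1 gene of the 25 whose annotated span overlaps another listed gene, so part of its counts could belong to that neighbour. The other 6 were COCSUDRAFT_33330, COCSUDRAFT_53613, COCSUDRAFT_54090, COCSUDRAFT_47526, COCSUDRAFT_54324 and COCSUDRAFT_65660, with mean levels from 2077 to 2628 CPM.

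The order of the ranking changed with the scale more than with the library. Of the 10 most abundant genes by CPM in a single library, 8 were in the top 10 of all 3 libraries, and 82 of 100 were in the top 100 of all 3. Between CPM and CPM per kilobase, 4 of the top 10, 13 of the top 25 and 57 of the top 100 were shared. Long genes ranked lower per kilobase: the HSP90 gene COCSUDRAFT_54922 spans 7671 bases and moved from rank 12 to rank 174, and EF-3 moved from rank 3 to rank 47. Short ribosomal protein genes moved up. L27a (COCSUDRAFT_23296), S30 (COCSUDRAFT_52937) and L37a (COCSUDRAFT_33375) moved from ranks 9, 14 and 19 by CPM to ranks 3, 6 and 7 per kilobase, at 2638 ± 405, 2126 ± 119 and 2018 ± 283. L38 (COCSUDRAFT_18123), a fragment model of 243 bases, moved from rank 348 by CPM to rank 8 per kilobase, a place that rests on the length of the model.

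Functional classes were formed from the product names, each gene with a matching name in 1 of 28 classes. These classes took in 2926 genes and 44.8% of the counts. Genes with other names (2829) held 24.0% ± 0.128, and the 3735 genes with no informative name held 31.3% ± 0.281. The share of a class varied little between libraries, with a CV from 0.331% for lipid metabolism to 7.68% for cytoskeleton and cilia, and a median of 3.23% over the 28 classes. For comparison, 24.8% of all listed genes had a mean of at least 100 CPM, and the median gene had 42.3 CPM and 14.7 CPM per kilobase.

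**Figure D3:**
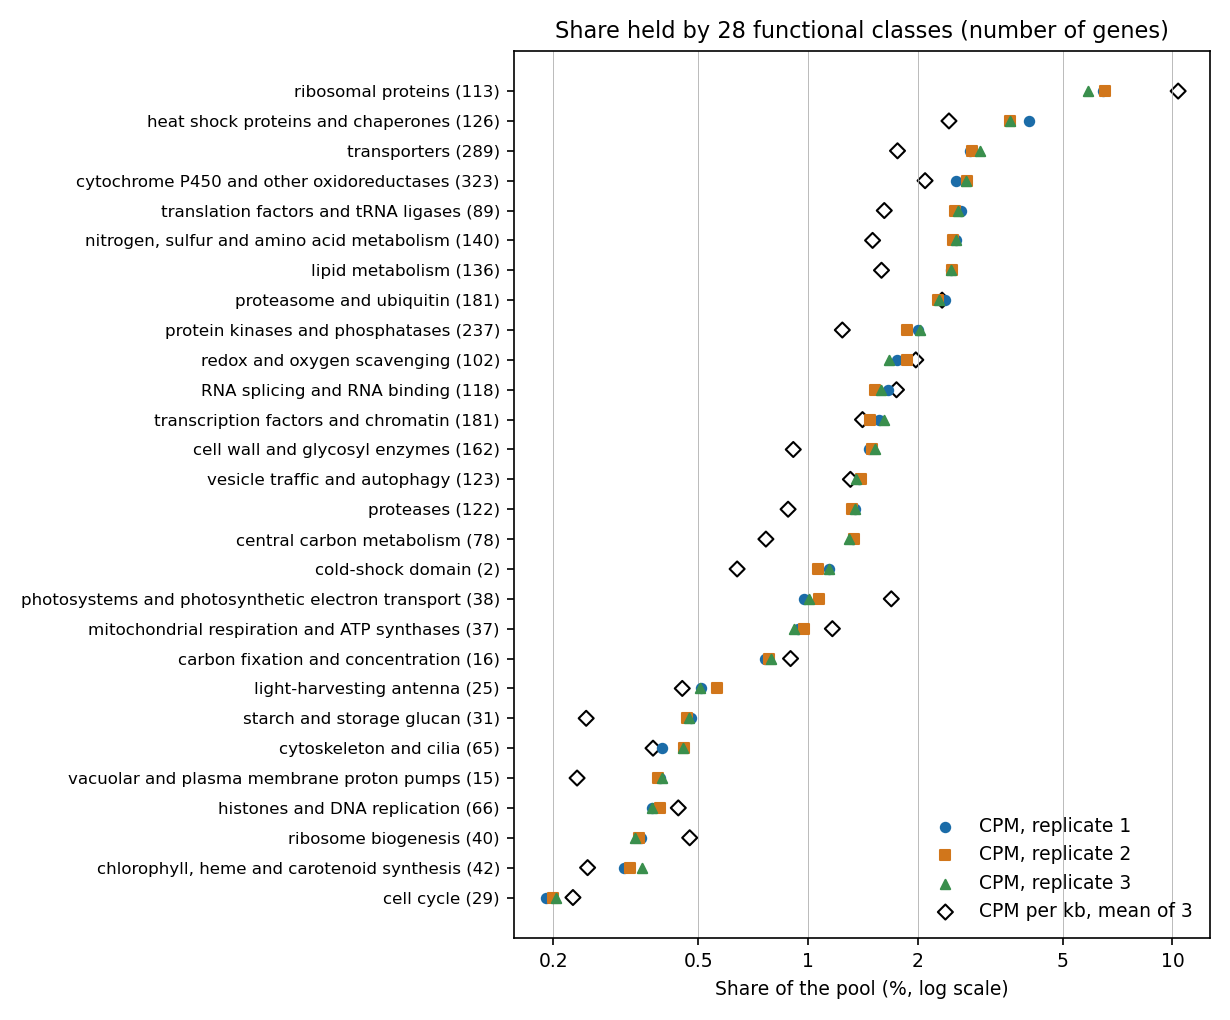
Share of the WT pool (percent, log scale) held by each of 28 functional classes, with the number of genes in brackets; filled symbols are shares of counts in the 3 libraries and open diamonds are mean shares on the CPM per kilobase scale. Ribosomal proteins lead on both scales, at 6.30% of counts and 10.4% per kilobase.

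Ribosomal proteins were the largest named class by share of counts. The 113 genes held 6.46%, 6.55% and 5.88% of the counts in replicates 1, 2 and 3, a mean of 6.30% ± 0.362. The exact 95% intervals of these library shares were 6.44% to 6.48%, 6.52% to 6.57% and 5.86% to 5.90%, so replicate 3 was lower than the others by more than counting error. Of the 113 genes, 94 (83.2%) had at least 100 CPM and 19 had at least 1000 CPM. Per kilobase their share was 10.4%, since their median gene span is 1492 bases against 2694 bases over all genes. The most abundant member, L27a of the large cytosolic subunit, had 2994, 3081 and 3921 CPM and was highest in replicate 3, unlike the class as a whole.

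The 50 genes that can be placed in the cytosolic ribosome by their names had a median of 781 CPM and 461 CPM per kilobase, and 49 of them reached 100 CPM. The exception was a fragment model named S26 (COCSUDRAFT_9490), with less than 1 CPM. The 18 genes named for plastid or mitochondrial ribosomes, which make a smaller set of proteins inside the organelles, had a median of 127 CPM and 163 CPM per kilobase, and 15 of them reached 100 CPM. Chloroplast L31 (COCSUDRAFT_49257) had 480, 468 and 398 CPM.

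Other genes of translation added to this. Translation factors and tRNA ligases (89 genes) held 2.58% ± 0.0506 of the counts, with 24.5% of that on EF-3 alone. Initiation factor 4A (COCSUDRAFT_25465), an RNA helicase that opens the 5′ end of mRNA, had 1741, 1786 and 1716 CPM. The 13 genes named as subunits of initiation factor 3, the scaffold that joins the small subunit to mRNA, had a median of 222 CPM, and 11 reached 100 CPM. Their summed share was 0.334% in the mean, with an SD of 0.00391 over the 3 libraries. Ribosome biogenesis (40 genes) held 0.342%, and 9 of its genes (22.5%) reached 100 CPM, close to the 24.8% of all genes. Fibrillarin (COCSUDRAFT_58980), which methylates ribosomal RNA, had 317, 309 and 361 CPM.

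Heat shock proteins and chaperones held the next share among the 28 classes. This place depended on the class rule: the oxidoreductase class held 2.66% with each gene in its first matching class but 5.08% with each gene in every class it matched, where chaperones held 3.73%. With the name patterns before correction, chosen as an alternative after the data were seen, vesicle traffic held 3.41%, oxidoreductases 3.23% and chaperones 3.22%. The 126 genes had 4.03%, 3.59% and 3.58% of the counts, a mean of 3.73% ± 0.256. Of them, 46 (36.5%) had at least 100 CPM and 13 had at least 1000 CPM. Per kilobase the share was 2.44%. The class was led by few genes, and the HSP70 gene COCSUDRAFT_26106 alone held 12.2% of it. Within the families, 5 of 8 HSP70 genes, all 3 HSP90 genes and 5 of 7 genes of the HSP20 family reached 100 CPM. The summed share of the HSP70 genes was 1.22%, 1.06% and 1.07% in replicates 1, 2 and 3, and that of the HSP20 family was 0.673%, 0.593% and 0.486%. Members of the HSP70 family can share sequence, so how counts are divided among them is uncertain.

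The HSP20 family had its own low members. The small heat shock gene COCSUDRAFT_52534 had 1581, 1417 and 1194 CPM and COCSUDRAFT_33636 had 1202, 1070.3 and 1076 CPM. COCSUDRAFT_41769 had 16.8, 21.2 and 20.9 CPM, and COCSUDRAFT_41760 had no count in replicates 1 and 2. The family thus ran from near 0 to a mean of 2579 CPM in the same libraries.

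Photosystem and antenna genes encoded in the nucleus were 0.400% and 0.263% of the listed genes and held larger shares of the counts. Photosystems and photosynthetic electron transport (38 genes) had 0.977%, 1.07% and 1.01% of the counts, a mean of 1.02% ± 0.0494, and 1.69% per kilobase. The 33 kDa oxygen evolving protein of photosystem II (COCSUDRAFT_30990), which stabilises the manganese cluster, had 1375, 1489 and 1554 CPM. Psb28 (COCSUDRAFT_21732), a photosystem II assembly factor, had 1092, 1102 and 1031 CPM. Of the 38 genes, 17 (44.7%) reached 100 CPM. The light-harvesting antenna (25 genes) held 0.525% ± 0.0318, its most abundant gene COCSUDRAFT_21950 having 781, 835 and 642 CPM. Of the 25 antenna genes, 14 (56.0%) reached 100 CPM, and their class median was 187 CPM. Over all genes these were 24.8% and 42.3 CPM. Antenna genes are a family with similar sequences, so the division of counts among them is uncertain.

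The soluble electron carriers of photosynthesis were uneven. These genes were picked by name after their values had been seen. Plastocyanin (COCSUDRAFT_20734), the copper protein that carries electrons to photosystem I, had 4.84, 4.08 and 3.71 CPM. Cytochrome c-553 (COCSUDRAFT_15199), also known as cytochrome c6, a heme protein that does the same task in Chlamydomonas when copper is scarce, had 685, 762 and 807 CPM. The 2 genes are of similar length (809 and 801 bases), and on the CPM per kilobase scale they stood at 5.21 ± 0.715 and 938 ± 76.9, with no overlap between the libraries. Of the 2 genes named for copper transport, COCSUDRAFT_32313 had 171, 179.9 and 263 CPM and COCSUDRAFT_47590 had 48.2, 39.9 and 47.2 CPM. The labels name no copper or iron supply, and the part of either in these levels was not tested.

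On the acceptor side of photosystem I, ferredoxin (COCSUDRAFT_25236), an iron-sulfur protein, had 1175, 1279.8 and 1378 CPM, and the flavodoxin IsiB gene (COCSUDRAFT_53474), whose flavin protein can replace ferredoxin in many algae when iron is scarce, had 887, 1477 and 1663 CPM. Per kilobase ferredoxin stood at 1067 ± 84.8 and flavodoxin at 390 ± 118. Flavodoxin was lower in replicate 1 than in the other libraries, with a CV of 30.2%. The other 3 genes named ferredoxin had means between 19.1 and 57.3 CPM.

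Iron genes by name numbered 13 and held 0.596%, 0.708% and 0.684% of the counts. Most of this lay on 2 genes, the abundant ferritin named above and the iron permease FTR1 (COCSUDRAFT_52684), a plasma membrane iron importer in fungi and algae. FTR1 had 1605, 2151 and 2043 CPM. A second ferritin gene (COCSUDRAFT_25419) had 496, 580.3 and 543 CPM, another (COCSUDRAFT_19440) had 30.9, 37.8 and 45.1 CPM, and 2 further ferritin models, COCSUDRAFT_57039 and COCSUDRAFT_57040, were at or under the limit of detection. Replicate 1 was the lowest library for FTR1, flavodoxin and the first 3 ferritin genes. It was the lowest for 7 of the 11 iron genes with at least 10 CPM, and for 41.1% of all genes at that level.

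Carbon fixation and concentration (16 genes) held 0.778% ± 0.0157, of which 58.9% was the Rubisco small chain. Rubisco activase (COCSUDRAFT_21767), which clears inhibitors from the enzyme, had 1262, 1271 and 1332 CPM, and phosphoribulokinase (COCSUDRAFT_35084), which makes the acceptor of carbon dioxide, had 348, 365 and 428 CPM. All 3 genes were highest in replicate 3, as were 8 of the 15 genes of the class with at least 10 CPM. Over all 7746 genes of at least 10 CPM, 3372 were highest in replicate 3. Central carbon metabolism (78 genes) held 1.32% ± 0.0195, and 40 of its genes (51.3%) reached 100 CPM. Its most abundant gene was fructose-bisphosphate aldolase (COCSUDRAFT_34109) at 1799, 1688 and 1672 CPM.

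Storage compounds were represented by both synthesis and breakdown genes. Starch and storage glucan (31 genes) held 0.471% ± 0.00553. Alpha-amylase (COCSUDRAFT_28437), which cuts starch, had 1081, 1185 and 1029.6 CPM, the branching enzyme (COCSUDRAFT_25768) had 454, 459 and 460 CPM, and the small subunit of ADP-glucose pyrophosphorylase (COCSUDRAFT_29736), which starts starch synthesis, had 245, 254 and 264 CPM. Lipid metabolism (136 genes) held 2.47% ± 0.00817, of which the acyl-ACP desaturase made up 27.1%. A 3-ketoacyl-CoA synthase (COCSUDRAFT_26029), an enzyme of very long chain fatty acid synthesis, had 1586, 1716 and 1842 CPM, and the acyl carrier protein (COCSUDRAFT_52715) had 1029.9, 988.5 and 821 CPM. The 2 caleosin genes, whose proteins coat lipid droplets in plants, had a mean of 10.5 CPM (COCSUDRAFT_58491) and no count in any WT library (COCSUDRAFT_58492). They were the lowest of 4 genes listed by name for lipid droplets and storage lipid. The 4 had a median of 30.9 CPM, and the most abundant (COCSUDRAFT_65109) had a mean of 56.2 CPM. Of the 2 enzymes of the glyoxylate cycle, which turns acetate units from fat into sugar precursors, 1 was low by CPM. Malate synthase (COCSUDRAFT_30369) had 42.4, 35.4 and 49.1 CPM, with a mean of 42.3 CPM like that of the median gene. Per kilobase it stood at 6.57, below the median of 14.7. Isocitrate lyase (COCSUDRAFT_17756) had only 4.24, 1.93 and 5.57 CPM.

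Nitrogen, sulfur and amino acid metabolism (140 genes) held 2.53% ± 0.0311. Its leading genes were methionine synthase (COCSUDRAFT_21995) at 924, 942 and 973 CPM and an ammonium transporter (COCSUDRAFT_47532) at 869, 877 and 944 CPM. Of 16 genes of nitrogen uptake and first assimilation, 6 reached 100 CPM and 6 were under 10 CPM. Glutamine synthetase (COCSUDRAFT_23194), which binds ammonium to glutamate, had 513, 551 and 525 CPM, and nitrate reductase (COCSUDRAFT_37154) had 45.8, 56.9 and 64.2 CPM. Of 20 genes of phosphate uptake and release, 6 reached 100 CPM and the most abundant, a proton/phosphate symporter (COCSUDRAFT_53267), had 285, 198 and 232 CPM.

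Genes of cell division were present at low to middle levels. Histones and DNA replication (66 genes) held 0.379%, and 9 of its genes (13.6%) reached 100 CPM. Among the 27 core histone genes, 3 reached 100 CPM and 15 had less than 1 CPM. The 3 were H2A (COCSUDRAFT_25614) at 724, 793 and 653 CPM, H3 (COCSUDRAFT_26007) at 481, 462 and 361 CPM and H2B (COCSUDRAFT_19942) at 226, 289 and 274 CPM. Histone genes are near-identical copies in many genomes, and how reads in such copies were counted is not stated, so the low members are uncertain. Histone messages in many eukaryotes also lack a poly(A) tail, and the labels do not state how messenger RNA was selected. Tubulins (5 genes) held 0.0956%, 0.134% and 0.124% of the counts and were lowest in replicate 1. Cell cycle genes (29) held 0.198%, and the cell division gene FtsZ (COCSUDRAFT_53327), which divides the chloroplast in algae, had 198, 233 and 216 CPM.

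Among other classes, transporters (289 genes) held 2.85%, the proteasome and ubiquitin class (181) 2.31%, redox and oxygen scavenging (102) 1.76%, protein kinases and phosphatases (237) 1.97% and transcription factors and chromatin (181) 1.55%. The share of genes with at least 100 CPM was 23.9%, 43.6%, 41.2%, 29.5% and 23.2% in the same order. Mitochondrial respiration and ATP synthases (37 genes) had 28 genes (75.7%) at 100 CPM or more and 0 genes at 1000 CPM or more. The class of photolyases and cryptochromes, blue light receptors and DNA repair enzymes, had 9 genes, of which COCSUDRAFT_47385 had 700.1, 777 and 719 CPM and the gene named cryptochrome (COCSUDRAFT_12871) had 99.1, 110 and 103 CPM. The MADS-box gene COCSUDRAFT_67545, a transcription factor gene, had 95.7, 81.8 and 89.1 CPM and ranked 2636th, above the median gene.

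Genes without an informative name were found at every level. They made up 39.4% of the listed genes and 35 of the 100 most abundant. They were 65.8% of the genes above 0 and under 1 CPM, 53.0% of those between 1 and 10 CPM, 36.7% between 10 and 100 CPM, 31.4% between 100 and 1000 CPM and 34.2% of the 111 genes at 1000 CPM or more. Of the 3735, 740 reached 100 CPM and 98 had no count in WT. Their per-kilobase share was 36.9%, with a median gene span of 2143 bases.

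The 3 libraries were alike but differed by more than sampling noise. Over 9490 genes, log2 CPM correlated at Pearson's r = 0.989 for replicates 1 and 2, 0.987 for 1 and 3 and 0.989 for 2 and 3 (Spearman's rho 0.988, 0.983 and 0.987; correlations across genes). The SD of the log2 ratio was 0.375, 0.424 and 0.380 for the same pairs, so replicates 1 and 3 were the most different pair. Chi-square per degree of freedom between pairs ran from 6.97 to 10.3, so no 2 libraries agreed within counting error. The biological coefficient of variation, the spread between replicates beyond counting error, was 13.1% by edgeR's common dispersion over 7746 genes with a mean of at least 10 CPM.

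The spread shrank with the level and then stayed. The median CV between the 3 libraries was 27.2% for genes of 1 to 10 CPM, 13.4% for 10 to 100 CPM, 9.15% for 100 to 1000 CPM and 8.80% for 1000 CPM or more. The counting error, taken as the Poisson SD over the mean, had medians of 21.5%, 7.74%, 3.52% and 1.22% in the same classes. The median of CVs taken over 3 libraries tends to fall below the SD that they estimate. Counting error alone would thus give somewhat lower median CVs than these. Of these classes, genes of 1 to 10 CPM lay nearest to the counting error, and genes of 1000 CPM or more lay far above it.

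**Figure D4:**
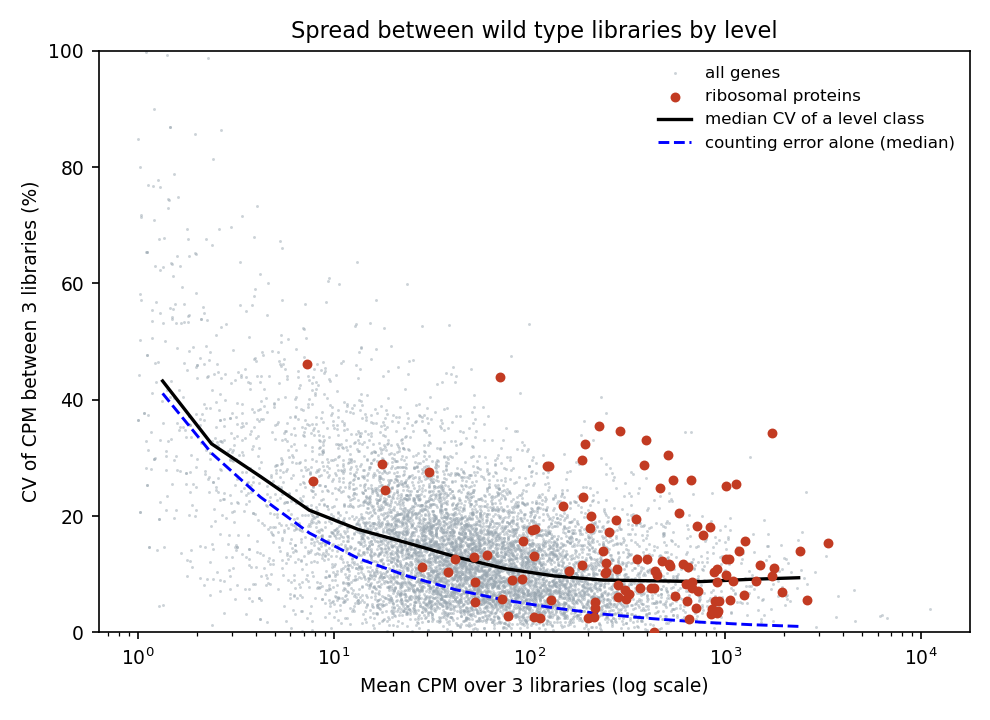
CV of CPM between the 3 WT libraries (percent) against mean CPM (log scale) for genes of at least 1 CPM; red points are ribosomal proteins, the black line is the median CV and the blue dashed line the CV expected from counting alone. The vertical axis ends at 100%. The median CV levels off near 9% above 100 CPM while counting error falls to about 1%.

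The 10 most stable genes among the 2349 with at least 100 CPM each came from a different class or group of names. Ribosomal protein S4 (COCSUDRAFT_65295) had 431, 432.0 and 432 CPM, a CV of 0.152%. The mitochondrial Rieske protein of the cytochrome b-c1 complex (COCSUDRAFT_64564) had 396, 399 and 398 CPM. The branching enzyme of starch and the dihydrolipoyl dehydrogenase gene COCSUDRAFT_67663, at 233, 233 and 231.5 CPM, were also among the 10 lowest CVs. The CV expected from counting alone was 2.29% for S4 and 2.39% for the Rieske protein, so both lay nearer together than their counting error, and the low CV was the reason for naming them.

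Of the 10 most variable of the 2349, 9 were lowest in replicate 3. The ubiquitin fragment COCSUDRAFT_9286 had 311, 259 and 128 CPM, a CV of 40.6%. The Rieske protein of the chloroplast cytochrome b6/f complex (COCSUDRAFT_46361), which passes electrons between the photosystems, had 300.2, 298 and 139 CPM. Ribosomal proteins S24 (COCSUDRAFT_66737), S29 (COCSUDRAFT_24741), L39 (COCSUDRAFT_24052) and S28e (COCSUDRAFT_33870) showed the same pattern, L39 having 2119, 2032 and 1049 CPM. The uncharacterized gene COCSUDRAFT_68343 went the other way, with 430.4, 685 and 891 CPM. Of the 17 genes with a CV above 30%, 13 were lowest in replicate 3 and 6 were ribosomal proteins, all 6 of them lowest in replicate 3. Over all 2349 genes of at least 100 CPM, 34.3% were lowest in replicate 3 and 94 genes were ribosomal proteins. The median span of the 17 was 1305 bases, against 2962 bases for all genes of at least 100 CPM.

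Few genes stood more than 2-fold apart in a single library. Among 7055 genes with at least 20 CPM in the highest library, 9 were more than 2-fold from the median of the other libraries in replicate 1, 3 in replicate 2 and 31 in replicate 3. In replicate 3, 21 of the 31 were higher and 10 lower. A gene that is high in 1 library can pass the 20 CPM filter through that library alone, so higher and lower genes were not counted on equal terms. An uncharacterized gene, COCSUDRAFT_13362, had 63.2, 74.7 and 159 CPM, and the gene for an Alba domain protein (COCSUDRAFT_9336) had 15.9, 14.8 and 39.8 CPM. A chlorophyll a-b binding gene of low level, COCSUDRAFT_30169, had 12.7, 9.44 and 27.0 CPM. It and the Alba domain gene passed the filter through replicate 3 alone.

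Gene length moved with the deviations of the libraries. Genes of at least 10 CPM were put into 10 groups of about equal size by span, and each gene's deviation from its mean over the 3 libraries was taken on the log2 scale and centred on the median gene. The median deviation in replicate 1 went from -0.06 in the shortest group (median span 806 bases) to 0.12 in the longest (9587 bases). In replicate 2 it went from 0.03 to -0.11, and in replicate 3 it stayed between -0.03 and 0.03. Ribosomal proteins lay furthest from other genes of their span between 1000 and 1500 bases. The 38 ribosomal protein genes of 1000 to 1500 bases had median deviations of 0.12, 0.06 and -0.21 in replicates 1, 2 and 3, against -0.04, 0.05 and -0.01 for the 846 other genes of that span. Of these 38, 29 were lowest in replicate 3, against 293 of the 846. The 30 of 1500 to 2000 bases had 0.03, 0.08 and -0.11, against -0.05, 0.05 and -0.0004 for other genes of that span. The 19 under 1000 bases had -0.07, 0.07 and -0.02 against -0.06, 0.03 and 0.03, and the 18 of 2000 to 3000 bases had -0.02, 0.07 and -0.03 against -0.03, 0.03 and 0.01. The 5 of 3000 bases or more had 0.004, 0.07 and -0.09, against 0.05, -0.05 and -0.0004. The part of RNA quality or library size selection in these differences was not tested.

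**Figure D5:**
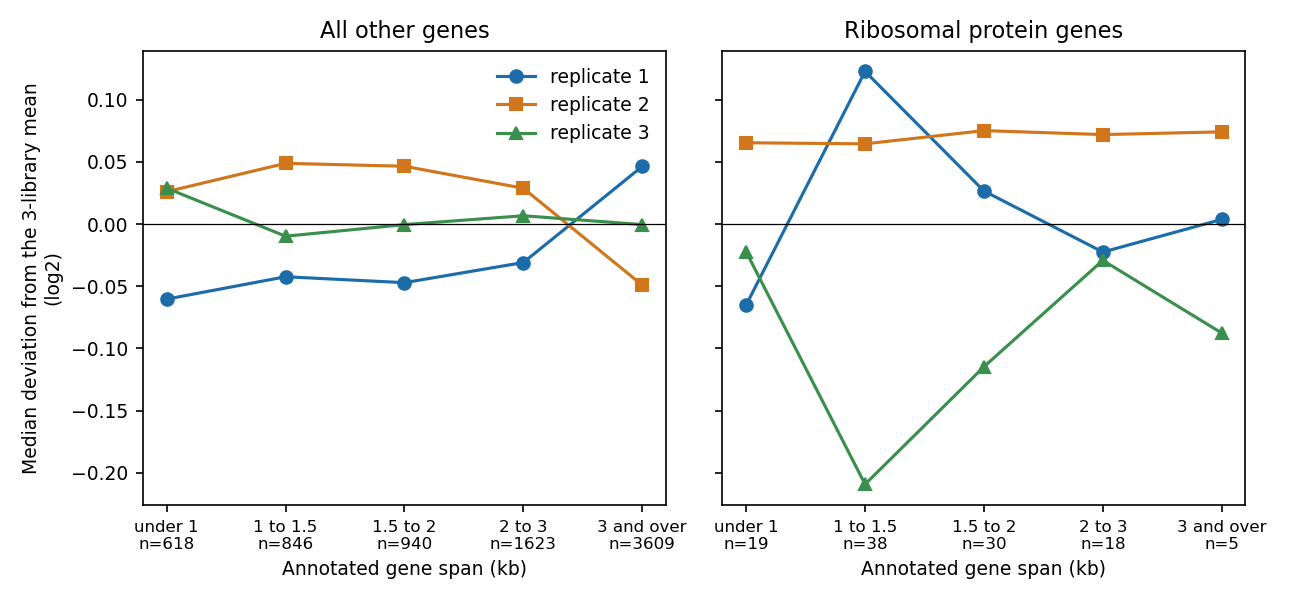
Median deviation of each WT library from the mean of the 3 (log2) by annotated gene span, for ribosomal protein genes (right) and all other genes (left), over genes with a mean of at least 10 CPM; n is the number of genes. Replicate 3 drops to -0.21 for ribosomal protein genes of 1 to 1.5 kb, while other genes of that span stay within 0.05 of 0.

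One stretch of the assembly also moved together. Among 28 scaffolds with at least 20 genes of 10 CPM or more, the scaffold that runs from COCSUDRAFT_45603 to COCSUDRAFT_34647 (62 listed genes, 45 of at least 10 CPM) had median deviations of -0.19, 0.13 and 0.04 in replicates 1, 2 and 3. Of the 45 genes, 32 were lowest in replicate 1, as were 41.1% of all 7746 genes of at least 10 CPM. The medians of the other 27 scaffolds lay between -0.13 and 0.02 in replicate 1, between -0.02 and 0.08 in replicate 2 and between -0.03 and 0.06 in replicate 3. The scaffold that came second, from COCSUDRAFT_60611 to COCSUDRAFT_45684, gave -0.13, 0.08 and 0.03 over 23 genes, 19 of them lowest in replicate 1. The cause was not tested. Adjacent genes shared their level only weakly: over 9461 pairs of neighbours the correlation of log2 mean CPM was 0.103. Within the 100 most abundant genes lay 5 neighbouring pairs, among them ferritin COCSUDRAFT_67369 beside the uncharacterized gene COCSUDRAFT_54324. The number of such pairs to be expected from unrelated positions was not worked out.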

How the data were processed

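The authors deposited raw counts per gene, 1 file per library, with a product name for each gene. Reads were handled with FastQC, Trim Galore, HISAT and HTSeq, per the submitters' processing notes, which give no versions. No source used here states the genome build or whether counting used strand, so reads of overlapping or antisense genes may be split or lost. Only the 3 WT libraries entered, with no comparison between groups and no p-value. Every listed gene has at least 1 count in at least 1 of the 6 libraries. Lengths came from RefSeq (assembly GCF_000258705.1), where each of the 9490 locus tags was found.

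Counts were scaled to CPM by the library total and divided by gene span for CPM per kilobase. Classes came from patterns on the product names, each gene in its first matching class. The patterns were corrected from the names alone. The members, lists and classes were chosen with earlier results of these data known. Named genes were the 25 of highest CPM, the 15 of highest CPM per kilobase, 3 per class, the 10 highest and 10 lowest CVs at 100 CPM or more, the 5 furthest from the other libraries in each library and the MADS-box gene. Other genes were named from 18 further lists by product name, or were chosen after their values were seen. Dispersion was fitted with edgeR 4.0.16 in R 4.3.3 (intercept only), and DESeq2 1.42.0 gave alternative scaling and dispersions. Intervals are 95% exact (Clopper-Pearson) and cover counting error only. Deviations used log2(CPM + 1), and pairwise ratios a prior count of 2. Data were simulated for WT with a biological coefficient of variation of 12% and 200 genes at 50%. On these edgeR gave a tagwise median of 12.95% over 7745 genes. Its common dispersion, the measure used in the results, gave 15.08% with the 200 genes included, above the simulated 12%. Of the 200, 160 were among the 200 highest CVs of 2349 genes.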

Additional observations from a re-analysis of the deposited data

How the results depend on the processing

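No paired analysis was possible because only 1 group enters. Leaving out each WT library in turn gave a median CV of 8.70% to 10.7% over genes, against 12.0% with all 3. A median CV over fewer libraries tends to come out lower at the same spread, so this fall does not by itself show a smaller spread. The biological coefficient of variation became 11.7% to 15.1%, against 13.1%. The shares of the first 1, 10 and 100 genes and of the classes moved by less than the SD between libraries, and the counts of genes by level or share by less than 1.5 times. Leaving out a library was not run for the further name lists, the pairwise ratios, the rank overlaps, the CVs by level and the deviations by span or scaffold. Scaling by TMM or DESeq2 size factors (gene counts by level, median CV, biological coefficient of variation) and pooling counts over libraries (shares) moved no value by more than that. For the classes, and for the first gene, which was the same in every library, this outcome was fixed in advance. A mean of 3 library values cannot move by a full SD when 1 of them is left out or when they are pooled. For these shares it therefore says nothing about robustness.

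Per kilobase, the first gene held 0.653%, the top 10 genes 5.05% and the top 100 21.4%, and the shares became 10.4% for ribosomal proteins, 2.44% for chaperones, 1.62% for translation factors and tRNA ligases, 1.59% for lipid metabolism, 1.69% for photosystems, 0.451% for the antenna and 36.9% for genes with no informative name. With only informatively named genes as the denominator these were 9.16%, 5.43%, 3.75%, 3.59%, 1.48% and 0.764% for the first 6. The name patterns before correction, an alternative chosen after seeing the data, gave 3.22% for chaperones, 2.52% for translation factors and tRNA ligases, 2.59% for lipid metabolism and 1.19% for photosystems. Among the other classes and groups of names, 22 of 23 shares moved by more than the SD between libraries per kilobase, 22 of 22 with the smaller denominator, 6 of 22 with each gene in every class it matched and 20 of 21 with the earlier patterns.

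The median CV was 13.7% with no filter and 9.12% at 100 CPM or more. DESeq2's dispersions gave 15.001% for the biological coefficient of variation. The SD of the log2 ratio was 0.529, 0.551 and 0.529 for the pairs 1 and 2, 1 and 3, and 2 and 3 with a prior count of 0.5, and 0.287, 0.349 and 0.295 for genes of at least 10 CPM. With 3 libraries a CV of a single gene is itself imprecise, and under 10 CPM counting error makes up a large part of it. Gene span includes introns, so levels per kilobase of intron-rich genes are too low.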
